A study of Homo sapiens with 12 samples.

Results

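The EGFR family genes described here are 3 receptors (EGFR, ERBB2 and ERBB3), 6 ligands (AREG, EREG, HBEGF, TGFA, BTC and EPGN) and the feedback inhibitor ERRFI1. They were found by gene symbol, and all 10 of them were found among the 63568 genes of the table. RNA was sequenced from MDA-MB-231/GFP, a triple negative breast cancer cell line carrying a fluorescent protein, grown as droplets of cells in Matrigel on a glass bottom. There were 12 samples, 2 for each of 6 conditions. C1 was untreated and taken on day 2, C2 was untreated and taken on day 4, and the other samples received Paclitaxel, a drug that binds microtubules, at 0.0005, 0.005, 0.05 or 0.5 μM and were taken on day 4. The labels place the drug on day 2. The study's methods for the imaged cultures, whose procedure was repeated here, name a day later than day 4, when the treated samples were taken. The time of exposure therefore rests on the labels and is uncertain. Every group came from this same cell line with the genotype given as WT, so differences between donors or clones were not sampled.

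EGFR, ERBB2 and ERBB3 are cell surface receptors that work in pairs. A ligand such as AREG, EREG, HBEGF or TGFA is made as a membrane-bound precursor, is cut free by proteases of the ADAM family and binds EGFR, which then signals through the RAS and ERK kinases. ERRFI1, also called MIG6, is induced by this signalling and binds the EGFR kinase to shut it off.

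The libraries held between 38380629 and 79169121 counts, and all 10 EGFR family genes were among the 25249 genes tested. The C1 samples stood apart from each other: the chi-square statistic per degree of freedom between their counts was 227, against 6.94 to 38.8 for the other pairs, and their totals were the highest and the lowest. VIM, a mesenchymal filament expected in this line, lay between 797 and 1366 CPM (counts scaled by TMM library size), ESR1 and PGR, the hormone receptors, reached at most 0.460 and 0.0867 CPM, and KRT19, fixed as a low marker, was not low at 144 to 277 CPM. The summed fibroblast markers lay between 8.53 and 16.8 CPM in untreated and 11.6 and 18.1 CPM in treated samples, with COL1A2 at most 0.131 CPM. Most of this sum came from COL1A1, counted 161 to 835 times in a sample, and PDGFRB, counted 121 to 634 times. The summed immune markers lay between 0.447 and 0.644 CPM in untreated and 1.05 and 1.71 CPM in treated samples, with PTPRC at most 0.281 CPM. Most of the immune sum came from CD14, counted 15 to 98 times in a sample. The summed endothelial markers stayed at or below 0.463 CPM in all 12 samples. In treated against untreated samples 1 of 4 tested fibroblast markers (FAP), 2 of 2 immune markers (CD14 and PTPRC) and 0 of 1 endothelial markers were called higher, and 2 of 5 markers fixed as high in this line (AXL and CAV1) were called lower (edgeR). Over all genes tested 13.1% were called higher and 11.3% lower in this comparison. Among the 12245 with a mean of at least 5 CPM, 574 were called higher and 2504 lower. The part of these markers in the results was not tested. In such bulk samples fewer cells expressing a gene and less RNA per cell cannot be told apart.

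The ligand genes EPGN, EREG, AREG and BTC lie together on chromosome 4, and this cluster has an effect on how AREG can be counted. On GRCh37, EPGN spans 75174187 to 75182506, EREG 75230862 to 75254466, AREG 75310853 to 75320722, and BTC, on the opposite strand, 75669969 to 75719733, in all 546 kb. A second copy of AREG, listed as AREGB, spans 75480629 to 75490486 in the same cluster. The annotated transcripts of the copies, of 1234 and 1239 bases, differed at 1 of 1234 aligned bases, and 91.2% of the 100-base windows of AREG were identical in AREGB. AREGB was listed with between 81.6% and 85.3% as many counts as AREG in every sample, so AREG values are uncertain in level. Summing both copies changed no call of the 10 genes in the 7 comparisons or in the test across all conditions. EGFR, on chromosome 7 from 55086710 to 55279321, shares its locus with the antisense gene EGFR-AS1, ERBB2 overlaps MIEN1 and PGAP3 on the other strand, and ERRFI1 overlaps an unnamed gene on the other strand. Whether counting used strand is not given in the sources used here.

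The sequences before the starts of 6 genes are shown: EGFR, HBEGF, TGFA and EREG, which passed the test in at least 1 comparison, AREG, which passed the test across all conditions, and ERRFI1, the feedback inhibitor. Each sequence is the 250 bases before the annotated start, from RefSeq on GRCh38.p14, which had an entry for 9 of the 10 genes, and the entry farthest upstream was taken where a gene had several. Capitals mark matches to TGACGTCA (the cAMP response element, on both strands), TGANTCA (AP-1, on both strands), GGGCGG (the GC box, on both strands) and TATAAA (the TATA box, on the gene's strand only). AREG is at chr4:74444886-74445135 (+), EREG at chr4:74364895-74365144 (+), ERRFI1 at chr1:8026310-8026559 (-), HBEGF at chr5:140346604-140346853 (-), EGFR at chr7:55018767-55019016 (+) and TGFA at chr2:70553827-70554076 (-).
AREG: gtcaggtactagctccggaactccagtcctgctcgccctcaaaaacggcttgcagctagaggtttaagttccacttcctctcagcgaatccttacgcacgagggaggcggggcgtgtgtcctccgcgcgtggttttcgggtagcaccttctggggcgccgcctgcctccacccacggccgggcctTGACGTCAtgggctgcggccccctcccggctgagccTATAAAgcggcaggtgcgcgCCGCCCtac
EREG: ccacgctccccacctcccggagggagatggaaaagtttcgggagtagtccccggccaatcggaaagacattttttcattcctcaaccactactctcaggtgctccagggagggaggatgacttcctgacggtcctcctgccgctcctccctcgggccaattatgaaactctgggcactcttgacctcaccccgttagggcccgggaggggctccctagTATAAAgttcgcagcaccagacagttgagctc
ERRFI1: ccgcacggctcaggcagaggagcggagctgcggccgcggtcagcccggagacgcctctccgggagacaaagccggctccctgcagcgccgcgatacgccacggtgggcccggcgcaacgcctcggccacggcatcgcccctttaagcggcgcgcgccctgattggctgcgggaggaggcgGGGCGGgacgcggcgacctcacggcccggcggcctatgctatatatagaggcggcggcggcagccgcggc
HBEGF: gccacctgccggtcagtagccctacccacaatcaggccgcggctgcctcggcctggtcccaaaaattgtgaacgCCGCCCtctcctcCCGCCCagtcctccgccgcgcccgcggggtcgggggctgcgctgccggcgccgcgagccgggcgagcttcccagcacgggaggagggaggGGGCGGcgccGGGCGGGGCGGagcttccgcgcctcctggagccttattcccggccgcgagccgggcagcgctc
EGFR: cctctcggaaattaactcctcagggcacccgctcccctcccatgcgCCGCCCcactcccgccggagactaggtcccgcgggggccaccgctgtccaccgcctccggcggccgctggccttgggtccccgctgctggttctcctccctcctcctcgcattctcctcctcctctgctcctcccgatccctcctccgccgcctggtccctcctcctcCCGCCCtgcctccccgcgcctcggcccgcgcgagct
TGFA: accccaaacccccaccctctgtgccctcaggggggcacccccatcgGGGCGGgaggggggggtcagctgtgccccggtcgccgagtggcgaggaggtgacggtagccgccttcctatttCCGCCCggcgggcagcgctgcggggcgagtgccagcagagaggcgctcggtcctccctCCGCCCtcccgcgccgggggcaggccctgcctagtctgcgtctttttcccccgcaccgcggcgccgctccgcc
AREG held 1 cAMP response element, 1 TATA box and 1 GC box, and EREG held 1 TATA box. HBEGF held 5 GC boxes, TGFA held 3, EGFR held 2 and ERRFI1 held 1, and these 4 genes had no match to the letters TATAAA. Only these letters were searched for, so a stretch such as tatatata near the end of the ERRFI1 sequence was not counted. Of all 35116 promoters of this length, 1.65% held the cAMP response element, 6.57% the AP-1 site, 42.6% the GC box and 6.80% the TATA box. The GC content was 73.6% for EGFR, 76.4% for HBEGF, 75.6% for TGFA, 75.2% for ERRFI1, 65.2% for AREG and 58.0% for EREG, against a median of 58.0% over all promoters. These matches are descriptions of letters and not of bound sites.

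The family was expressed at levels that differed widely between its genes. Per kb of exon, the median over 12 samples was 200 CPM per kb for ERRFI1, 56.3 for EREG, 36.0 for HBEGF, 22.4 for AREG, 20.6 for EGFR, 10.8 for TGFA, 2.95 for ERBB2, 0.960 for BTC, 0.501 for ERBB3 and 0.168 for EPGN. The ranges over samples overlapped for EREG and HBEGF, for HBEGF and AREG, for HBEGF and EGFR, for AREG and EGFR, and for BTC and ERBB3. With the length of the canonical transcript in place of all exons, EGFR stood above AREG and ERBB3 above BTC, and the other places in the order stayed as given. With the counts of AREGB added, a choice made after the data were seen, the median of AREG was 41.2 CPM per kb, above that of HBEGF. EGFR was thus the receptor with the highest level in every sample, and its CPM was between 9.40 and 13.1 times that of ERBB2, a receptor with no known ligand of its own.

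**Figure D1:**
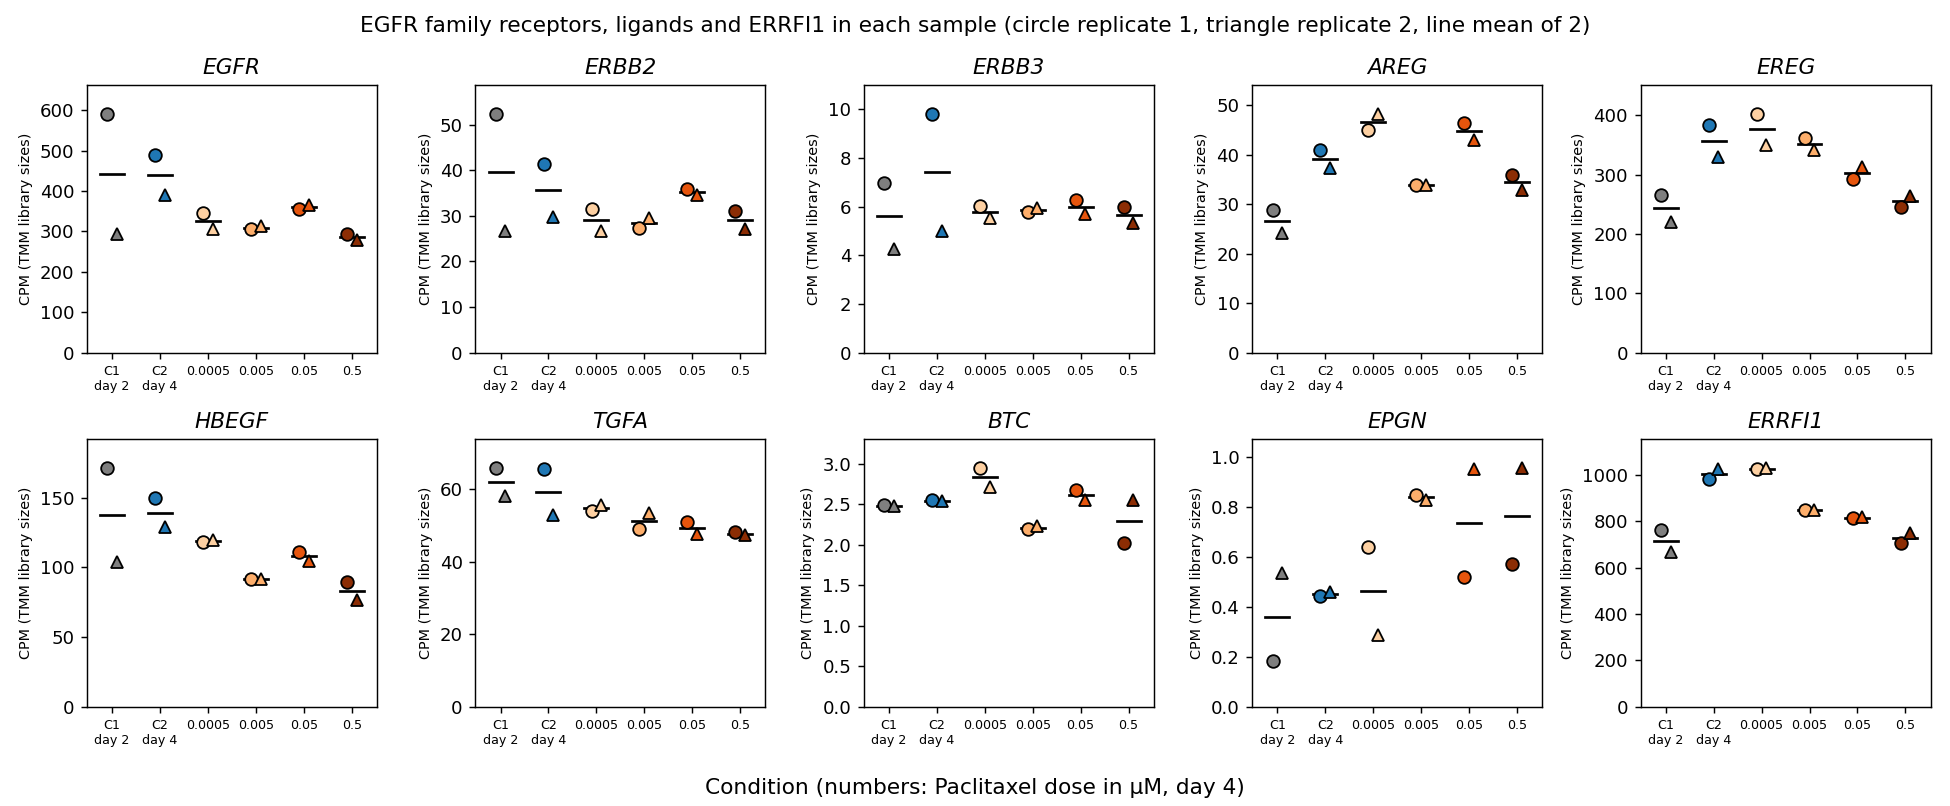
CPM of the 10 EGFR family genes (vertical axes, each starting at 0) by condition (horizontal axes), with a circle for replicate 1, a triangle for replicate 2 and a line for their mean. EREG and ERRFI1 are lower at higher doses, HBEGF is lowest at 0.5 μM, and the replicates of EGFR and of ERBB2 lie farther apart in C1 than in the other conditions.

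The receptors were compared first. EGFR, the receptor tyrosine kinase that gives the family its name, was at 592 and 293 CPM in C1 and 490 and 391 CPM in C2. It was at 345 and 307 CPM at 0.0005 μM, 306 and 312 CPM at 0.005 μM, 357 and 366 CPM at 0.05 μM, and 293 and 280 CPM at 0.5 μM. All 8 treated samples lay below both C2 samples and below C1 replicate 1, while C1 replicate 2 fell inside the treated range. In treated against untreated samples EGFR was lower by a log2 fold change of -0.46 (SE 0.15, adjusted p = 0.0281, edgeR quasi-likelihood test with Benjamini-Hochberg adjustment over all genes tested). Against C2 alone the log2 fold changes of EGFR at the 4 doses were -0.43, -0.51, -0.28 and -0.62, and none passed the test (at 0.5 μM SE 0.25, adjusted p = 0.168, edgeR).

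ERBB2 ranged from 26.6 to 52.4 CPM, and its highest and lowest values were the C1 replicates. Its log2 fold change in treated against untreated samples was -0.31 (SE 0.15, adjusted p = 0.141, edgeR). ERBB3, a receptor whose own kinase is weak and which signals through its partners, ranged from 4.27 to 9.82 CPM. Its highest value was C2 replicate 1, with C2 replicate 2 at 4.99 CPM, and its log2 fold change at 0.5 μM against C2 was -0.39 (SE 0.28, adjusted p = 0.440, edgeR). Without C2 replicate 1 that value was 0.18, so its direction rested on this sample.

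The ligands HBEGF and TGFA were lower in treated samples. HBEGF, a heparin-binding ligand of EGFR, was at 171 and 104 CPM in C1, 150 and 129 CPM in C2, 118 and 119 CPM at 0.0005 μM, 91.6 and 91.5 CPM at 0.005 μM, 111 and 105 CPM at 0.05 μM, and 89.7 and 76.2 CPM at 0.5 μM. All 8 treated samples lay below both C2 samples, and C1 replicate 2 fell inside the treated range. At 0.5 μM HBEGF was lower than in C2 by a log2 fold change of -0.75 (SE 0.20, adjusted p = 0.0470, edgeR). It was the 1 gene of the 10 called at this dose, where 6.32% of all genes tested were called in either direction and 1.96% were lower. That call was lost when any 1 sample other than the C1 samples was left out, with adjusted p-values between 0.0674 and 0.338 (edgeR) and log2 fold changes between -0.64 and -0.90.

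HBEGF was also lower in treated against untreated samples, at -0.47 (log2, SE 0.14, adjusted p = 0.0198, edgeR). TGFA, another ligand of EGFR, was at 65.9 and 58.0 CPM in C1, 65.5 and 52.9 CPM in C2, and between 47.2 and 55.6 CPM, with a median of 50.03 CPM, in the 8 treated samples. Treated and untreated samples of TGFA overlapped, and it was lower by -0.25 (log2, SE 0.09, adjusted p = 0.0442, edgeR). EGFR, HBEGF and TGFA were thus 3 of 10 genes called lower in treated against untreated samples, where 24.4% of all genes tested were called in either direction and 11.3% were lower. Among the 12245 genes with a mean of at least 5 CPM, to which these 3 belong, 2504 were called lower. Without C1 replicate 1 or without C2 replicate 1 none of the 3 calls remained. Without C1 replicate 1 EGFR was at -0.29 (adjusted p = 0.159, edgeR), HBEGF at -0.35 and TGFA at -0.22. Without C2 replicate 1 the 3 were at -0.41, -0.43 and -0.22 in that order. The TGFA call was also lost with no filter (-0.25, adjusted p = 0.143) and without both C1 samples (-0.21, adjusted p = 0.173, both edgeR). It was lost as well without any 1 of the 6 samples at 0.005, 0.05 or 0.5 μM (-0.24 to -0.27, adjusted p between 0.0536 and 0.0759, edgeR). With C2 as the only control and the mean of the 4 doses, 0 of 10 genes were called (edgeR), where 9.74% of all genes tested were, with HBEGF at -0.49 (adjusted p = 0.0642), EGFR at -0.46 (adjusted p = 0.157) and TGFA at -0.22 (adjusted p = 0.235). With all treated samples against C2 in a fit without the C1 samples, a choice made after the data were seen, 2 were called lower. These were EGFR at -0.45 (adjusted p = 0.0269) and HBEGF at -0.46 (adjusted p = 0.0409, both edgeR), where 3408 of 25109 genes tested were called.

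**Figure D2:**
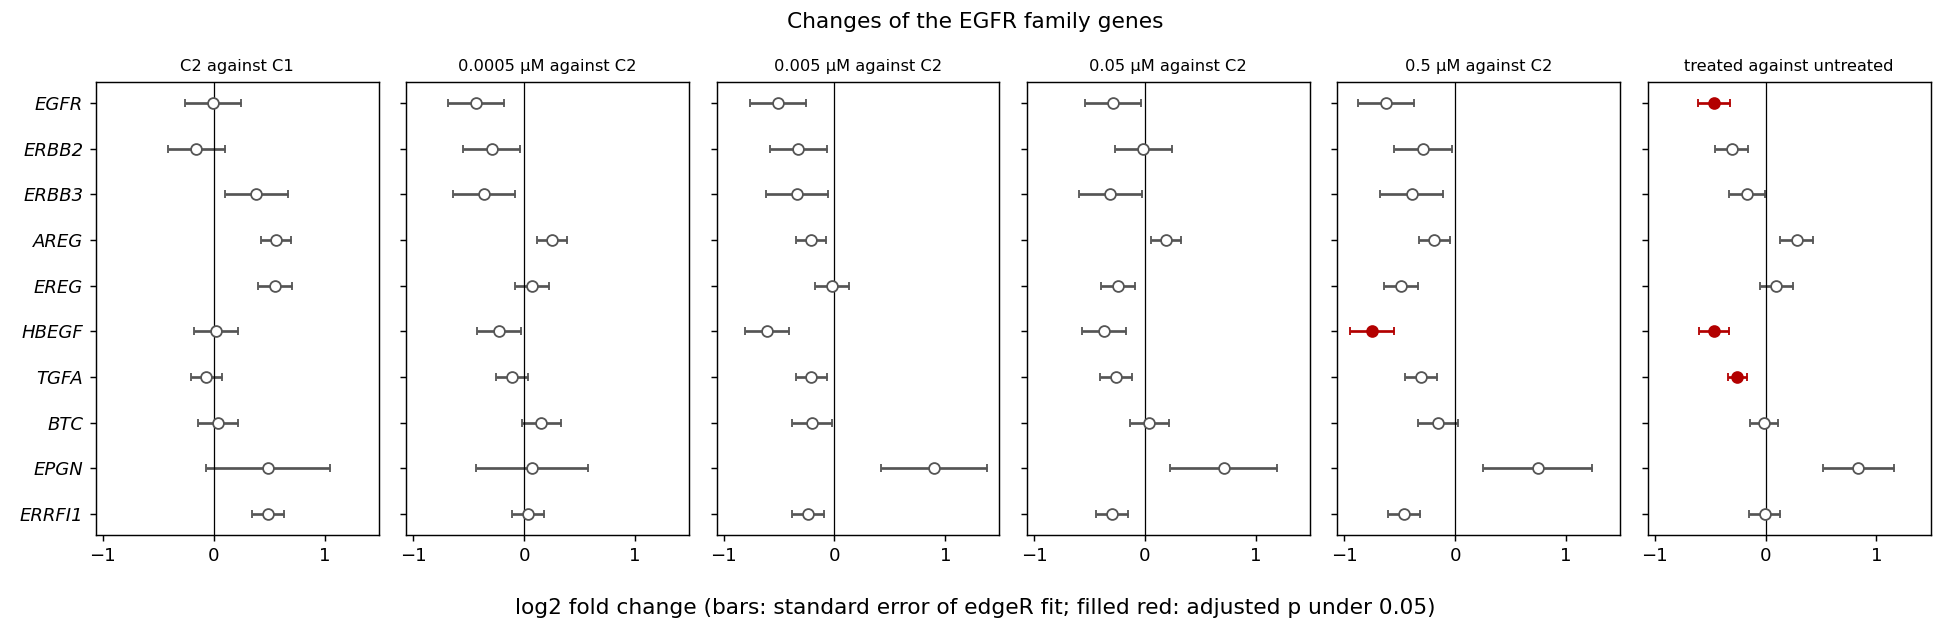
Log2 fold change (horizontal axes) of the 10 EGFR family genes in 6 comparisons, with bars for the standard error of the edgeR fit and filled red points for an adjusted p under 0.05. HBEGF at 0.5 μM and EGFR, HBEGF and TGFA in treated against untreated samples are the 4 filled points.

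EREG, AREG and ERRFI1 had another course over the conditions, with the lowest mean in C1 and the highest at 0.0005 μM. EREG, the ligand epiregulin, was at 265 and 221 CPM in C1, 384 and 330 CPM in C2, 403 and 350 CPM at 0.0005 μM, 362 and 342 CPM at 0.005 μM, 292 and 313 CPM at 0.05 μM, and 245 and 264 CPM at 0.5 μM. Both samples at 0.5 μM lay below all other samples of day 4. Across the 8 treated samples EREG fell with dose, with a slope of -0.19 on the log2 scale for each 10-fold step (SE 0.04, adjusted p = 0.0267, edgeR). It was the 1 gene of the 10 called for the slope, where 3.15% of 25057 genes were called and 2.11% fell. The call was lost without replicate 1 of 0.0005 μM, replicate 2 of 0.005 μM or either replicate of 0.5 μM, with slopes between -0.17 and -0.20. It was also lost with a replicate block, at a slope of -0.19 (adjusted p = 0.0558, edgeR). Against C2, EREG at 0.5 μM had a log2 fold change of -0.49 (SE 0.15, adjusted p = 0.0827, edgeR).

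ERRFI1, the feedback inhibitor, was at 764 and 667 CPM in C1, 981 and 1027 CPM in C2, 1024 and 1031 CPM at 0.0005 μM, 849 and 850 CPM at 0.005 μM, 814 and 819 CPM at 0.05 μM, and 708 and 748 CPM at 0.5 μM. The values of the 3 higher doses lay below both C2 samples and did not overlap each other. Its slope with dose was -0.16 (log2 for each 10-fold step, SE 0.04, adjusted p = 0.0695, edgeR) and its log2 fold change at 0.5 μM against C2 was -0.46 (SE 0.14, adjusted p = 0.0801, edgeR), and neither passed the edgeR test. DESeq2 called ERRFI1 and EREG lower in both comparisons, where it called 3.41% of all genes it fitted for the slope and 4.25% at 0.5 μM. AREG, the ligand amphiregulin, was at 28.8 and 24.3 CPM in C1, 41.0 and 37.4 CPM in C2, 45.0 and 48.4 CPM at 0.0005 μM, 33.9 and 33.9 CPM at 0.005 μM, 46.5 and 43.1 CPM at 0.05 μM, and 36.0 and 32.9 CPM at 0.5 μM. Its values at 0.0005 and 0.05 μM lay above those at 0.005 and 0.5 μM, and its slope was -0.09 (log2 for each 10-fold step, SE 0.05, adjusted p = 0.392, edgeR).

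At 0.5 μM both samples lay below both C2 samples for 6 of the 10 genes (EGFR, AREG, EREG, HBEGF, TGFA and ERRFI1) and above them for 1 (EPGN). Over all genes tested 27.3% lay below and 31.7% above in the same way. At 0.0005, 0.005 and 0.05 μM none of the 10 genes was called by edgeR, where 2.34%, 3.28% and 8.32% of all genes tested were called. Of the 10 genes, 0, 1 and 0 had an unadjusted p under 0.05 (edgeR), against 4280, 4732 and 5984 of the 25249 genes tested. DESeq2 also called 0 at each of these doses. At 0.005 μM that gene was HBEGF, with a log2 fold change of -0.61 (SE 0.20, adjusted p = 0.126, edgeR).

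These 4 comparisons with C2 share their control samples. Without both C1 samples, a choice made after the data were seen, 1, 2, 1 and 4 of the 10 genes were called at 0.0005, 0.005, 0.05 and 0.5 μM: EGFR at the lowest dose, EGFR and HBEGF at 0.005 μM, HBEGF at 0.05 μM, and EGFR, EREG, ERRFI1 and HBEGF at 0.5 μM, each lower. In the same setting 10.3%, 12.7%, 19.2% and 20.0% of all genes tested were called. The fold changes of HBEGF at 0.5 μM were -0.75 with and -0.75 without the C1 samples.

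BTC and EPGN, the ligands betacellulin and epigen, were scarce. BTC lay between 2.03 and 2.95 CPM, with a log2 fold change of -0.16 at 0.5 μM (SE 0.18, adjusted p = 0.642, edgeR). EPGN was counted 13 to 73 times in a sample and lay between 0.183 and 0.957 CPM. In treated against untreated samples its log2 fold change was 0.84 (SE 0.32, adjusted p = 0.0675, edgeR), and the groups overlapped. EPGN was called higher in this comparison without C1 replicate 2 (0.99, adjusted p = 0.0475, edgeR) or without replicate 2 of 0.0005 μM (0.97, adjusted p = 0.0205, edgeR). ERBB2 was called lower without C1 replicate 2 (-0.42, adjusted p = 0.0265, edgeR).

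**Figure D3:**
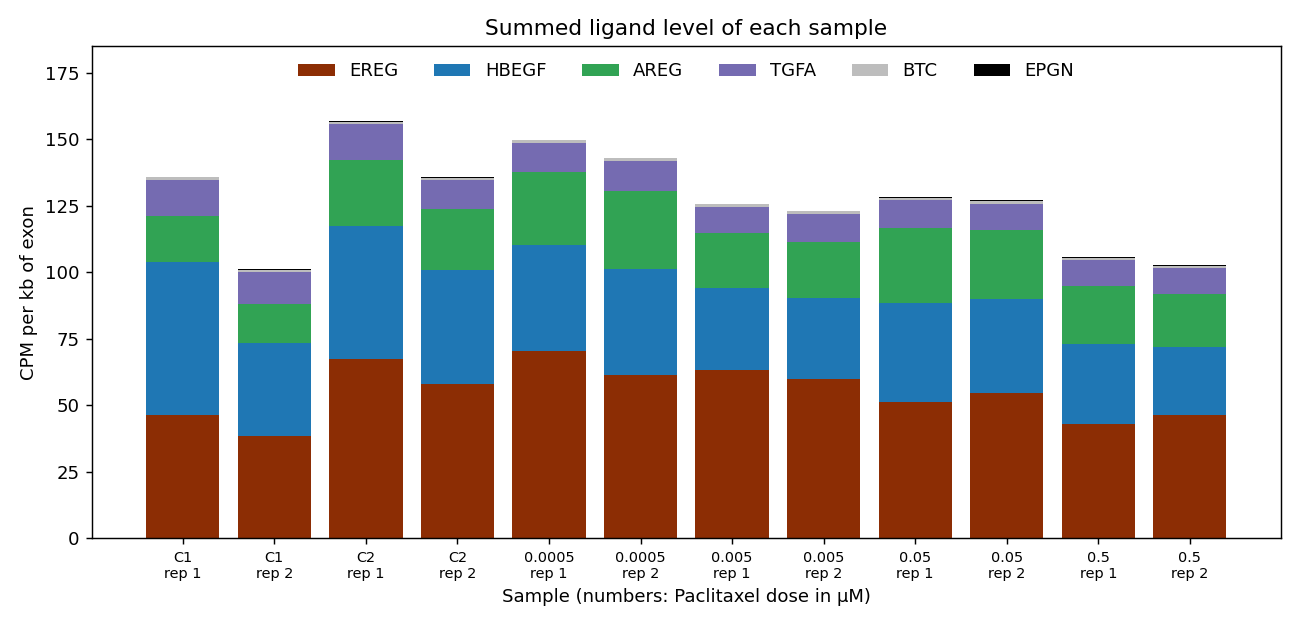
Stacked levels of the 6 ligands in CPM per kb of exon (vertical axis) in each of the 12 samples (horizontal axis). The summed level is between 101 and 157 CPM per kb, EREG and HBEGF take most of it in every sample when AREGB is left out, as here, and BTC and EPGN are barely visible.

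Between the untreated days the ligands AREG and EREG and the inhibitor ERRFI1 were at higher values on day 4. The log2 fold changes of C2 against C1 were 0.56 for AREG (SE 0.14, adjusted p = 0.178), 0.56 for EREG (SE 0.15, adjusted p = 0.259) and 0.49 for ERRFI1 (SE 0.14, adjusted p = 0.304, all edgeR). Both C2 samples lay above both C1 samples for each of these genes. The share of all genes that separated in this way between the days was not computed, and at 0.5 μM against C2 it was 31.7% upward. None of the 10 genes was called by edgeR, where 0.325% of all genes tested were. Of the 10 genes, 3 had an unadjusted p under 0.05 (edgeR), against 2524 of the 25249 genes tested. DESeq2 called 2, AREG and ERRFI1, and 0.489% of all genes it fitted. Without C1 replicate 1 edgeR called 4 of the 10 genes higher, AREG, EREG, ERRFI1 and EGFR, and EGFR turned from -0.01 to 0.59 (adjusted p = 0.0345, edgeR), while 10% of all genes tested were called. Without C1 replicate 2 it called AREG alone of the 10, and 7.03% of all genes tested.

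The shares of the ligands were first taken with the counts listed for AREG alone. EREG made up between 34.2% and 50.4% of the summed ligand level per kb, HBEGF between 24.4% and 42.2%, AREG between 12.9% and 22.1%, TGFA between 7.34% and 11.7%, and BTC and EPGN less than 1% each. HBEGF took 42.2% and 34.4% in C1 and 31.9% and 31.8% in C2, and between 24.4% and 29.0% in the 8 treated samples, which did not overlap the untreated ones. With the counts of AREGB added to those of AREG, the share of AREG was between 21.6% and 34.4%, that of EREG between 30.8% and 44.3% and that of HBEGF between 21.4% and 38.0%. AREG then stood above HBEGF in the 8 treated samples and above EREG in 1 sample, replicate 1 of 0.05 μM. HBEGF then took between 27.8% and 38.0% in the untreated and between 21.4% and 24.4% in the treated samples. Without AREGB the summed level was 118 ± 24.5 CPM per kb in C1 and 146 ± 14.9 in C2 (SD, n = 2). From the lowest to the highest dose it was 146 ± 4.81, 124 ± 1.84, 128 ± 0.830 and 104 ± 2.08 CPM per kb (SD, n = 2). C1 replicate 2, at 101 CPM per kb, lay below both samples at 0.5 μM.

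**Figure D4:**
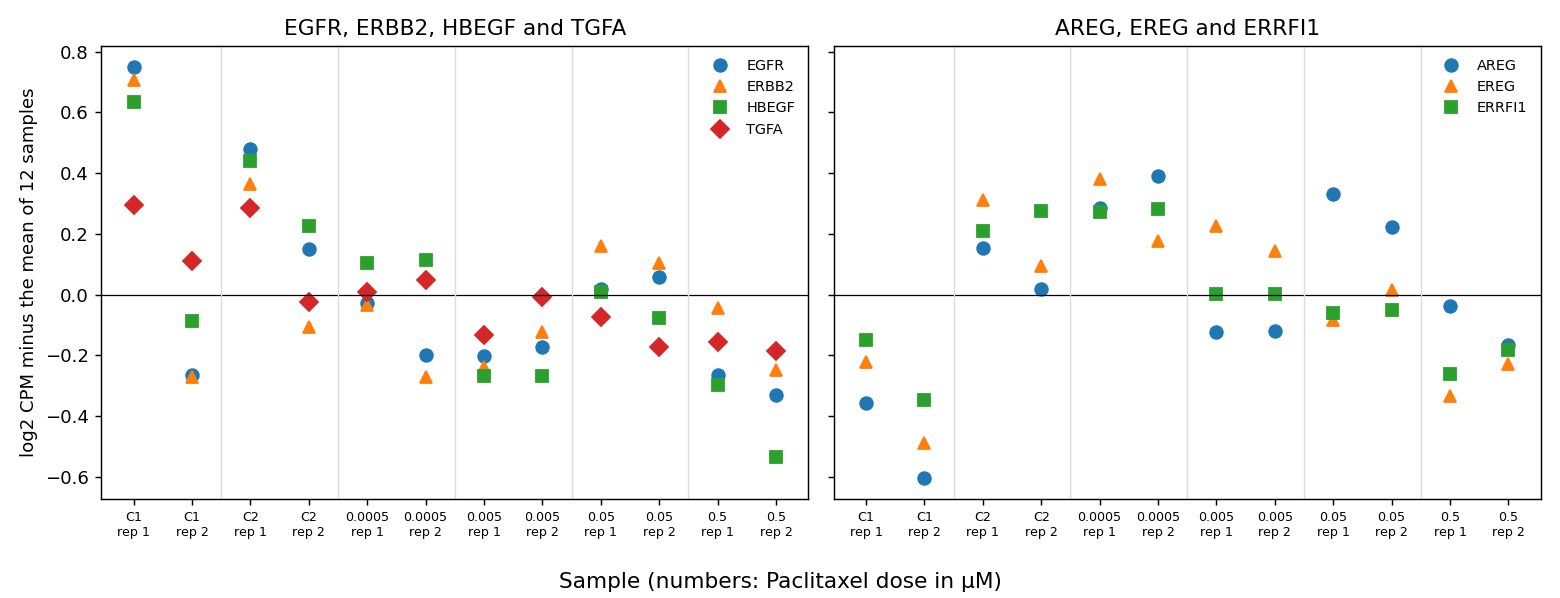
Log2 CPM minus the mean over 12 samples (vertical axes) for EGFR, ERBB2, HBEGF and TGFA (left) and AREG, EREG and ERRFI1 (right) in each sample (horizontal axes), grouped after their values were seen. On the left C1 replicate 1 is the highest sample, and on the right both C1 samples are among the lowest.

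AREG had the smallest p of the 10 genes in the test across all 6 conditions (adjusted p = 0.0158, edgeR), and EREG also passed (adjusted p = 0.0480, edgeR), where 11% of all genes tested passed. The genes whose log2 CPM was most like that of AREG over the 12 samples, among 11091 candidates, were its copy AREGB (Pearson r = 0.999), JUNB (0.957), HOXD1 (0.945), DEPP1 (0.945) and CD83 (0.933). These coefficients are descriptions over samples that share libraries and conditions.

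The rest of the pathway was described from lists fixed by function. Among 8 genes of ligand release, 2 were called lower at 0.05 μM: ADAM17, the main protease that frees AREG, EREG, HBEGF and TGFA, at -0.53 (log2, SE 0.12, adjusted p = 0.0212), and ADAM10, which frees BTC and EGF, at -0.59 (log2, SE 0.14, adjusted p = 0.0268, both edgeR). Of all genes tested 3.23% were called lower and 5.09% higher at this dose. At 0.5 μM none of the 8 was called by edgeR, and 2 had an unadjusted p under 0.05, against 5793 of the 25249 genes tested. All 8 had negative log2 fold changes, as did 11869 of all genes tested and 7774 of the 12245 with a mean of at least 5 CPM. The median of the 8 was -0.29, against 0.04 over all genes tested and -0.10 over those with a mean of at least 5 CPM. ADAM10 (-0.41) and ADAM9 (-0.36) were lower in treated against untreated samples on the log2 scale, 2 of 8 where 11.3% of all genes tested were lower. Of the 12245 genes with a mean of at least 5 CPM, 2504 were called lower in that comparison. Of the 4 other EGF-family genes, NRG4, a ligand of ERBB4, rose at 0.5 μM from 0.819 and 1.55 CPM in C2 to 2.85 and 3.16 CPM (log2 fold change 1.35, SE 0.31, adjusted p = 0.0284, edgeR). At this dose 4.36% of all genes tested were called higher. NRG2, a ligand of ERBB3 and ERBB4, was lower in treated against untreated samples at -0.50 (log2, adjusted p = 0.0145, edgeR).

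Among 14 adaptors and effectors, 2 were called lower in treated against untreated samples, PTPN11, the phosphatase SHP2, at -0.45 and SOS2, an exchange factor for RAS, at -0.31 (log2), and none was higher. Of all genes tested 11.3% were called lower and 24.4% in either direction, and 2504 of the 12245 with a mean of at least 5 CPM were called lower. Among 17 genes of receptor restraint and traffic, 1 was called, CBLB, a ubiquitin ligase, at 0.33 (log2). Of 18 genes that report EGFR and ERK output, 2 were higher, EGR1 at 1.41 and IER3 at 0.60, and 2 were lower, IL11 at -0.68 and CCND1 at -0.58 (log2). The medians of these 3 lists were -0.11, -0.06 and -0.20, against 0.00 over all genes tested and -0.14 over those with a mean of at least 5 CPM.

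Genes known to respond quickly to handling and heat also differed between the conditions, in both directions. The 16 listed genes, among them FOSB, ATF3, NR4A1 and the heat shock genes HSPA1B and HSPA6, summed to 2531 and 1656 CPM in C1, 3258 and 2469 CPM in C2, and 1710 and 1472 CPM at 0.5 μM. At 0.5 μM 10 of the 16 were called lower and 1, EGR1, higher (edgeR), against 1.96% and 4.36% of all genes tested. At 0.05 μM 8 were called lower and 3 higher (edgeR), against 3.23% and 5.09%, and in treated against untreated samples 4 were lower and 3 higher (edgeR), against 11.3% and 13.1%. FOSB was at 549 and 350 CPM in C2 and 46.5 and 39.3 CPM at 0.5 μM. HSPA6 had a slope with dose of -0.86 (log2 for each 10-fold step, SE 0.06, adjusted p = 2.0e-06, edgeR). The part of this response in the values of HBEGF, EREG, AREG and ERRFI1 was not tested.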

How the data were processed

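RNA of 12 samples was sequenced as paired reads. The authors trimmed reads with Trimmomatic 0.39, aligned them with STAR 2.7.5 to GRCh37, kept unique alignments and counted reads in exons with Rsubread. The deposited values are whole-number counts per gene, not normalized. The annotation release is not given in the sources used here. The total per sample was 38380629 to 79169121 counts.

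Counts were scaled by TMM, filtered with filterByExpr over the 6 conditions (25249 genes, 25057 for the slope) and tested two-sided with the edgeR 4.0.16 quasi-likelihood test in R 4.3.3, adjusted over all tested genes at 0.05. Each dose was compared with C2, and C2 with C1, in 1 fit of 12 samples with 6 residual degrees of freedom. Treated against untreated samples and the slope on log10 dose were separate fits. The standard error was taken from the fold change and its F statistic, and log2 CPM used a prior count of 2. The study names 2 biological replicates per condition. Exon lengths came from GENCODE on GRCh37. All 10 family genes are named, and list genes that passed at least 1 test, at most 5 a list. The family genes and lists were chosen with earlier results of these data known. Alternatives were DESeq2 1.42.0, RLE, no filter, a replicate block, the conditions alone, AREG summed with AREGB, C2 alone as control, and leaving out samples. Code was tested on simulated data.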

Additional observations from a re-analysis of the deposited data

How the results depend on the processing

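Every one of the 10 genes was followed in each of 7 comparisons, in all 70 results, under every alternative that applied. In 48 of them the sign held under all alternatives run, and in 22 it changed in at least 1. None of the calls made changed sign, and 1 sign change was itself called: EGFR for C2 against C1, 0.59 without C1 replicate 1. The counts of called genes moved as follows. With DESeq2, 2 genes were called for C2 against C1, 3 at 0.5 μM and 2 for the slope, against 0.489%, 4.25% and 3.41% of all genes. With the samples of the conditions compared alone, 2 were called at 0.005 μM and 3 at 0.5 μM, against 11% and 11.4% of all genes, and with no filter beyond 1 count, 1 and 2, against 3.9% and 5.74%. With no filter 2 in place of 3 were called in treated against untreated samples, against 11.7% of all genes. Without both C1 samples, added after the data were seen, 1, 2, 1 and 4 were called from the lowest to the highest dose. In that setting 2, EGFR and HBEGF, were called in treated against untreated samples, against 3408 of 25109 genes. With the mean of the 4 doses against C2 in the fit of all 12 samples, 0 were called, against 9.74% of all genes. Leaving out 1 sample at a time gave 0 to 4 for C2 against C1, 0 to 1 at 0.0005 μM, 0 to 2 at 0.005 μM, 0 to 1 at 0.05 μM, 0 to 4 at 0.5 μM, 0 to 2 for the slope and 0 to 5 for treated against untreated samples. The shares of all genes called in those fits were 0.175% to 10%, 0.536% to 9.52%, 0.316% to 12.4%, 1.19% to 18.1%, 0.48% to 18.8%, 0.463% to 3.8% and 15.6% to 26.4%, in that order. The cause was not tested.

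The sources used here do not say that the replicate numbers pair the samples. Over 15 pairs of conditions the deviations of same-numbered samples correlated between -0.30 and 0.36, and 6 were over 0.1. These values cannot settle whether same-numbered samples of some conditions were handled together. With the replicate block the slope of EREG was no longer called (adjusted p = 0.0558, edgeR), so 0 genes were called in place of 1, and the counts of the other comparisons stayed as they were.

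Under other settings the sign changed as follows. EGFR for C2 against C1 was 0.0012 with those conditions alone and 0.021 with the replicate block. ERBB2 at 0.05 μM was 0.028 with those conditions alone, 0.0049 without both C1 samples, 0.017 with no filter and 0.0061 with the replicate block. EREG in treated against untreated samples was -0.14 without both C1 samples and -0.17 with C2 as the only control. HBEGF for C2 against C1 was -0.012 with DESeq2 and -0.0078 with RLE.

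Leaving out 1 sample at a time, log2 fold changes for C2 against C1 ran from -0.40 to 0.59 for EGFR, -0.53 to 0.42 for ERBB2, -0.20 to 0.80 for ERBB3, -0.25 to 1.33 for EPGN, -0.27 to 0.42 for HBEGF and -0.24 to 0.082 for TGFA. Those of ERBB3 ran from -0.77 to 0.21 at 0.0005 μM, -0.76 to 0.23 at 0.005 μM, -0.73 to 0.26 at 0.05 μM and -0.81 to 0.18 at 0.5 μM. At 0.0005 μM EPGN ran from -0.64 to 0.50, EREG from -0.039 to 0.19 and TGFA from -0.26 to 0.053. EREG ran from -0.14 to 0.090 at 0.005 μM, and at 0.05 μM BTC ran from -0.0027 to 0.055 and ERBB2 from -0.24 to 0.24. In treated against untreated samples BTC ran from -0.061 to 0.0040, ERBB3 from -0.30 to 0.091, EREG from -0.0084 to 0.23 and ERRFI1 from -0.10 to 0.080. The slopes ran from -0.056 to 0.0016 for EGFR and from -0.024 to 0.019 for ERBB3. With 2 samples a condition, an exact test of 2 against 2 cannot go below p = 0.333, and with EPGN at 13 to 73 counts its differences are the least precise.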
